A study of Mus musculus with 23 samples.

Results

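The mesothelial genes described here were Msln, Upk1b, Upk3b, Lrrn4, Wt1 and Gpm6a, measured in the ileum of mice that received the receptor ligand PCN or oil by injection into the abdomen. Members were chosen by name, as every array probe whose gene name is on that list. The rule found 6 genes and 8 probes among the 17574 named genes and 37161 probes of the deposited table. Where a gene had 2 probes, the brighter one stood for the gene and the other one is given beside it.

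Gene expression was measured with single-colour Agilent arrays, 1 array per mouse, in 23 male C57Bl6/J mice. WT CONT (n = 6) were wild-type mice given corn oil, and WT PCN (n = 5) were wild-type mice given pregnenolone 16α-carbonitrile (PCN), which activates the pregnane X receptor (PXR) of rodents, at 100 mg/kg in the same oil. Pxr-/- CONT (n = 6) and Pxr-/- PCN (n = 6) were mice without a functional Pxr gene (symbol Nr1i2) that got the same injections. All groups thus shared the intraperitoneal oil, once daily on 4 days, and the time of death at ZT6, 6 h after the last dose. WT mice were purchased at 6 weeks of age, and Pxr-/- mice, backcrossed on the C57Bl/6J background, came from an in-house colony. Genotype and breeding origin thus cannot be told apart. The mice were acclimatised for 2 weeks before they were allocated to groups. The deletion is in the whole animal. The samples are labelled as ileum, and the sources used here do not give how much of the serosa each one held. Fewer cells of a type and less RNA per cell cannot be told apart in them. The paper's methods describe the liver, and those for mice and dosing were taken to hold for the ileum.

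The mesothelium is the single layer of flat epithelial cells that covers the serosa, the outer surface of the gut, and lines the abdominal cavity. It secretes lubricant and hyaluronan, takes part in the clotting and lysis of fibrin, and, when irritated, releases cytokines and chemokines that recruit leukocytes from the blood. Compounds injected into the abdomen reach this layer before they reach the mucosa. Msln encodes mesothelin, a surface glycoprotein of mesothelial cells. Upk1b and Upk3b encode uroplakins, membrane proteins first known from the urothelium. Lrrn4 encodes a membrane protein with leucine-rich repeats, Wt1 a zinc finger transcription factor of the mesothelial lineage, and Gpm6a a membrane glycoprotein that is also abundant in neurons. PXR is a nuclear receptor, highly expressed in liver and intestinal epithelium, that switches on genes of drug metabolism.

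All 6 members were detected. Each of the 8 probes was well above the local background on 23 of 23 arrays, and none was saturated. Values are on the log2 scale of the deposited table, in which 1 unit is a doubling of signal, and the level of a probe cannot be set against that of another probe. On build mm9, the Msln probe (A_51_P146560) lies on chr17:25885569-25885628 (minus strand), the Upk3b probe (A_52_P114889) on chr5:136520522-136520581 (plus strand), the Lrrn4 probe (A_52_P460836) on chr2:132694490-132694549 (minus strand) and the Gpm6a probe (A_52_P566681) on chr8:56145539-56145598 (plus strand). The 2 Upk1b probes, the brighter A_55_P2932738 and the dimmer A_51_P113195, lie at chr16:38773592-38773651 and chr16:38773859-38773918 (minus strand). The 2 Wt1 probes, the brighter A_55_P1953143 and the dimmer A_55_P2719484, lie at chr2:105013656-105013715 and chr2:104974028-104974087, and the array annotation assigns the second one to an Ensembl transcript. Whether the probes lie in exons or untranslated regions was not analysed here.

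The RefSeq promoter table (GRCm38.p6) holds 3 of the 6 members, Lrrn4, Upk3b and Gpm6a. Their 250 bases before the annotated start are shown because the study turns on a nuclear receptor, and nuclear receptors of this class bind repeats of short half-sites. Capitals mark the half-sites AGGTCA and AGTTCA, which were searched on both strands and do not overlap each other here. Coordinates in order are chr2:132880863-132881112 (minus strand), chr5:136038246-136038495 (plus strand) and chr8:54779184-54779433 (plus strand).
Lrrn4: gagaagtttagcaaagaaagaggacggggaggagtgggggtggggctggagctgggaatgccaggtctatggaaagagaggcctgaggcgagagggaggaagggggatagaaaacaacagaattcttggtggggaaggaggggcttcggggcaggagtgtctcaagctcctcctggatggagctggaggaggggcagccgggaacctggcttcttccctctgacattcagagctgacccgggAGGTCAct
Upk3b: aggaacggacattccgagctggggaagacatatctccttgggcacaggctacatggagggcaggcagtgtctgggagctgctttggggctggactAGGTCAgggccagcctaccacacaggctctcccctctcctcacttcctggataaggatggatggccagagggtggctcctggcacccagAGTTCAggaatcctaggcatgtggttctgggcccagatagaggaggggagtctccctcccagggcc
Gpm6a: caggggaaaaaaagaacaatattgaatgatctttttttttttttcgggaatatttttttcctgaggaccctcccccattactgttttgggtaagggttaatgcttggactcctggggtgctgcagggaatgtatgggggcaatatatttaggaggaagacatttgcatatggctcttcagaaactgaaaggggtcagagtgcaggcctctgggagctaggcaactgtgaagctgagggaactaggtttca
The Lrrn4 window held 1 AGGTCA that began 8 bases before the start. The Upk3b window held AGGTCA at 155 and AGTTCA at 66 bases before the start, and the Gpm6a window held no match, nor did the window of its second entry at chr8:54954478-54954727. The start used for Lrrn4 lies inside the span that RefSeq gives for the gene (chr2:132866686-132894010). Of 32851 promoter windows of the same length, 14.02% held AGGTCA, 11.8% held AGTTCA and 24.2% held either. A match describes the letters only and is no evidence of binding.

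The labels were first compared with the Pxr transcript and with Cyp3a11, the classical PXR target. The Nr1i2 probe stayed bright in Pxr-/- mice, at 11.34 to 12.37 against 11.67 to 12.44 in WT, and the sources used here do not give whether it lies in the deleted part, so it checks no label. Cyp3a11 was at 10.82 to 12.56 in WT PCN, 7.12 to 9.30 in WT CONT and 6.01 to 6.89 in all 12 Pxr-/- arrays. That is the order stated by the genotype labels and, in WT, by the treatment labels. In Pxr-/- mice CONT (6.32 to 6.83) and PCN (6.01 to 6.89) overlapped, so Cyp3a11 cannot check the treatment labels there. Genes of ileal epithelium were bright on all arrays, with a mean over 8 genes of 15.38 to 15.76.

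The comparisons ask whether PCN, given into the abdomen, changed genes of the serosal covering, and whether the change differed between mice with and without PXR. Msln RNA was higher with PCN in both genotypes. It was 1.99-fold higher in WT PCN than in WT CONT and 1.67-fold higher in Pxr-/- PCN than in Pxr-/- CONT. Msln was the only one of the 6 genes called in both comparisons. Its call in Pxr-/- mice was lost under 5 of 16 other settings and without 5 of 23 single arrays. Wt1 was 1.55-fold higher with PCN in Pxr-/- mice, a call that most other settings of the analysis lost. Upk1b, Upk3b, Lrrn4 and Gpm6a were called in neither genotype. A probe was called when limma's adjusted p over all probes was at most 0.05 and the fold change was above 1.5.

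Msln was at 10.05, 10.27, 10.61, 10.83, 10.90 and 10.97 in WT CONT. In WT PCN it was at 11.22, 11.55, 11.67, 11.73 and 11.80. The 5 PCN arrays were thus all above the 6 CONT arrays, as was so for 1.43% of all probes. The change was 0.99 on the log2 scale (SE 0.202, 95% confidence interval 0.57 to 1.41, adjusted p = 0.00939 by limma). The call held with each of the 23 arrays left out in turn. It was lost when each wash batch was fitted on its own, with 2 or 3 arrays a group, where the change was 0.92 in batch 1 (adjusted p = 0.473 by limma) and 1.03 in batch 2 (adjusted p = 0.340).

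In Pxr-/- CONT, Msln was at 10.29, 10.37, 10.62, 10.77, 10.93 and 10.97. In Pxr-/- PCN it was at 10.61, 11.15, 11.32, 11.57, 11.85 and 11.88. Of these PCN arrays, 5 of 6 were above every CONT array, and replicate 1, at 10.61, lay inside the CONT range. The change was 0.74 (SE 0.193, 95% confidence interval 0.34 to 1.14, adjusted p = 0.0298 by limma). It was 0.67 in wash batch 1 and 0.81 in wash batch 2, and 0.89 without Pxr-/- PCN replicate 1. The call was lost under 5 of 16 other settings, with each wash batch fitted on its own (adjusted p = 0.533 and 0.215 by limma), with the processed signal (0.0530), without a filter on the scanner values (0.0585) and with the 2 groups fitted alone (0.0661). The adjusted p rose above the threshold, to between 0.0533 and 0.0827, when Pxr-/- CONT replicate 1, 5 or 6 or Pxr-/- PCN replicate 2 or 5 was left out.

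The 2 responses of Msln were not shown to differ. The PCN effect in WT minus that in Pxr-/- was 0.25 (SE 0.279, 95% confidence interval -0.32 to 0.83, adjusted p = 0.980 by limma). Without PCN the genotypes were 0.05 apart, and with PCN -0.20 (Pxr-/- minus WT), neither of them called.

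Wt1, the transcription factor of the lineage, spanned 8.15 to 8.95 (median 8.51) in Pxr-/- CONT and 8.73 to 9.72 (median 9.18) in Pxr-/- PCN. The groups overlapped through 1 PCN array, replicate 1. The change was 0.63 (SE 0.181, adjusted p = 0.0442 by limma). Its other probe changed by 0.24 (adjusted p = 0.303 by limma), although all 6 PCN arrays were above the mean of CONT on both probes. In WT, Wt1 spanned 8.23 to 9.06 (median 8.64) in CONT and was at 8.37, 8.64, 8.92, 9.22 and 9.48 with PCN, a change of 0.30 (adjusted p = 0.561 by limma). The call in Pxr-/- mice was lost under 11 of 16 other settings and without 11 of 23 single arrays (adjusted p 0.0514 to 0.119 by limma, change 0.53 to 0.65), which were Pxr-/- PCN replicates 2 to 6, Pxr-/- CONT replicates 1, 4, 5 and 6, WT PCN replicate 5 and WT CONT replicate 2. The interaction was -0.34 (SE 0.262, adjusted p = 0.978 by limma).

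**Figure D1:**
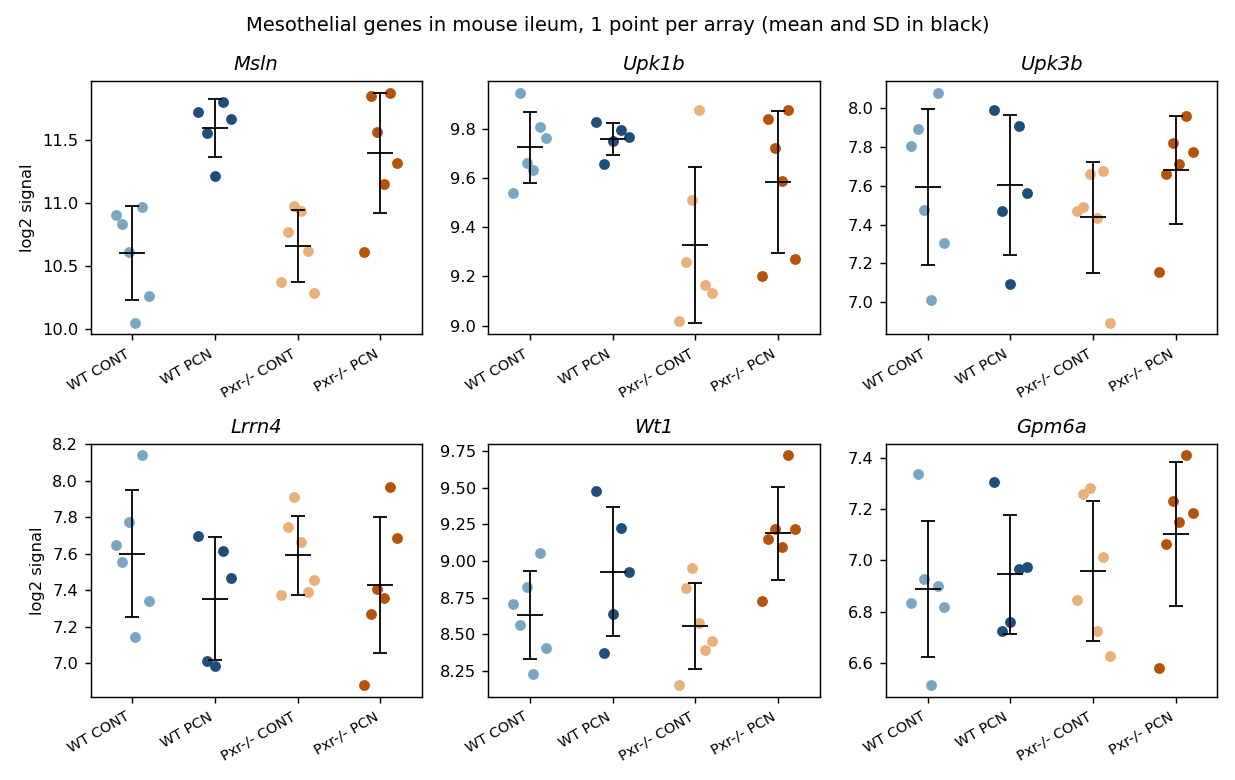
Log2 signal of the brighter probe of each gene (vertical axis) in the 4 groups, with 1 point per array and the mean ± SD in black. The 5 WT PCN arrays lie above all WT CONT arrays for Msln, while the groups overlap for the other genes.

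The uroplakin Upk3b spanned 7.01 to 8.08 in WT CONT and was at 7.09, 7.47, 7.56, 7.91 and 7.99 in WT PCN, a change of 0.01 (95% confidence interval -0.38 to 0.40). In Pxr-/- mice it spanned 6.89 to 7.67 (median 7.48) in CONT and 7.15 to 7.96 (median 7.74) with PCN, where 4 of 6 arrays were above all CONT arrays. That change was 0.24 (SE 0.179, adjusted p = 0.464 by limma).

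Lrrn4 was the one member lower with PCN in both genotypes, by values that the tests did not separate from 0. It spanned 7.14 to 8.14 in WT CONT and was at 6.98, 7.01, 7.47, 7.61 and 7.70 in WT PCN. The change was -0.25 in WT (SE 0.182, adjusted p = 0.631 by limma) and -0.16 in Pxr-/- mice (SE 0.173, adjusted p = 0.633), where CONT spanned 7.37 to 7.91 and PCN 6.88 to 7.97.

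Gpm6a overlapped between all 4 groups. It spanned 6.51 to 7.34 in WT CONT, 6.72 to 7.31 in WT PCN, 6.63 to 7.28 in Pxr-/- CONT and 6.58 to 7.41 in Pxr-/- PCN. PCN changed it by 0.06 (SE 0.151) in WT and by 0.14 (SE 0.144) in Pxr-/- mice, with adjusted p = 0.932 and 0.606 by limma.

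Without PCN, Upk1b had the largest of the 6 differences between the genotypes. In WT CONT it spanned 9.54 to 9.95 (median 9.71), and in Pxr-/- CONT 9.02 to 9.88 (median 9.21), where 5 of 6 arrays were below the WT mean. The difference was -0.40 (SE 0.128, unadjusted p = 0.00499, adjusted p = 0.225 by limma), and -0.33 on the other probe (unadjusted p = 0.0133, adjusted p = 0.332 by limma), so neither was called. Pxr-/- CONT replicate 4, at 9.88, was the array inside the WT range, and without it the difference was -0.51 (adjusted p = 0.0451 by limma), below the 1.5-fold limit. It was -0.22 in wash batch 1 and -0.57 in wash batch 2. The gene lies on chromosome 16, with its brighter probe 525 kb from that of Nr1i2 on build mm9. PCN changed Upk1b by 0.04 in WT (SE 0.134) and by 0.26 in Pxr-/- mice (SE 0.128, adjusted p = 0.257 by limma), and by 0.15 and 0.25 on the other probe.

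**Figure D2:**
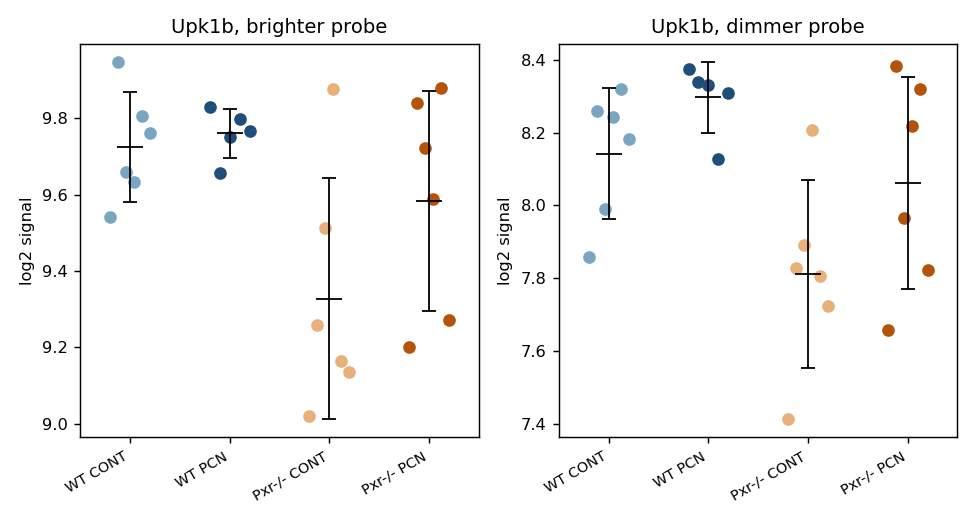
Log2 signal of the 2 Upk1b probes (vertical axes) by group, 1 point per array, mean ± SD in black. On both probes the Pxr-/- CONT mean is the lowest of the 4, and Pxr-/- CONT arrays reach into the WT CONT range.

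Over the list, 1 of 6 members was called in WT, where 0.737% of all probes were called and 0.638% were called higher. In Pxr-/- mice 2 of 6 were called, where 1.04% of all probes were called and 0.786% were called higher. With PCN, 5 of 6 members were higher in each genotype, beside 45.1% and 47% of all probes, but apart from Msln and Wt1 these differences were small. The median change of the members was 0.05 in WT and 0.25 in Pxr-/- mice, against -0.01 for all probes in both. None of the 6 was called in the interaction (0.0834% of all probes called), without PCN between the genotypes (0.188%) or with PCN between the genotypes (0.396%). At an unadjusted p under 0.05, these limma comparisons held 0, 1 (Upk1b) and 0 members. The PCN comparisons do not share arrays. Msln was one of 107 probes (0.288%) called higher with PCN in both genotypes, which are 45.1% of those called higher in WT and 36.6% of those called higher in Pxr-/- mice.

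**Figure D3:**
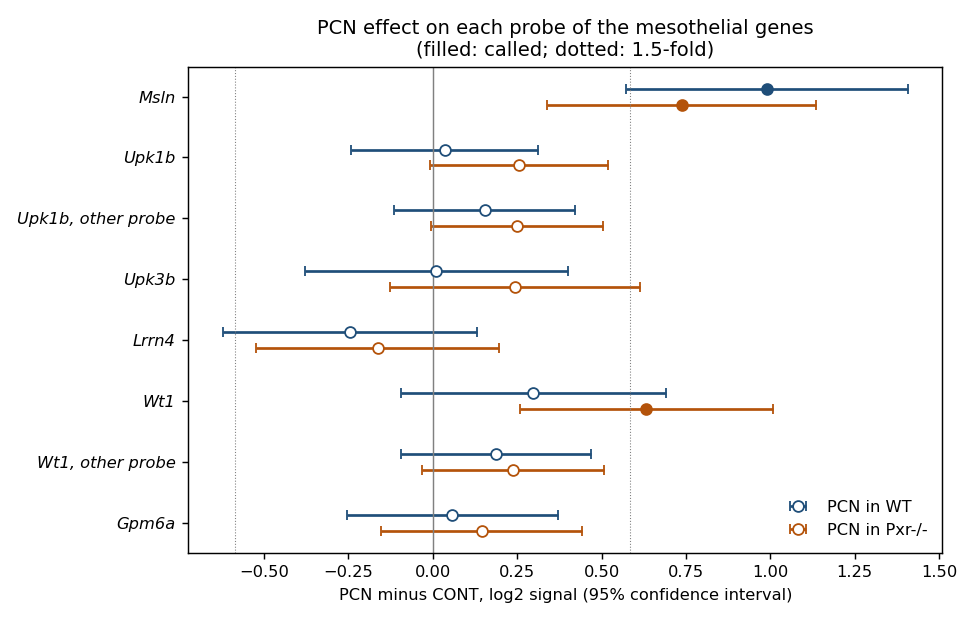
PCN minus CONT on the log2 scale (horizontal axis) for the 8 probes in WT (blue) and Pxr-/- mice (orange), with 95% confidence intervals from limma; filled points were called and dotted lines mark 1.5-fold. Msln lies at 0.99 and 0.74, and Wt1 in Pxr-/- mice at 0.63, while all other intervals include 0.

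Inside the groups the members rose and fell together from mouse to mouse. After the mean of each group was taken off, 10 of 10 pairs among Msln, Upk3b, Lrrn4, Wt1 and Gpm6a had a Pearson r of 0.67 to 0.94 and a Spearman rho of 0.54 to 0.95 over the 23 arrays. Lrrn4 and Wt1 were the closest pair (r = 0.94, rho = 0.95, permutation p = 1e-05 for each, the smallest that 100000 permutations can give, adjusted p = 5e-05 for r over the 15 pairs). Their r was 0.92 without the 2 arrays farthest from the median, 0.90 in wash batch 1 and 0.95 in wash batch 2. The adjusted permutation p of r was at most 0.0006 for all 10 pairs, but Msln and Gpm6a, at r = 0.67, rho = 0.54, had an r of 0.48 without the 2 farthest arrays and of 0.04 in wash batch 1.

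Upk1b followed the others less closely. Its 5 pairs had an r of 0.36 to 0.66 and a rho of 0.42 to 0.73, with 2 of 5 adjusted permutation p-values of r at most 0.05 (range 0.000845 to 0.09). In wash batch 2 their r was 0.73 to 0.90 and in wash batch 1 -0.56 to 0.36, so that the relation did not hold in batch 1. The 2 probes of Upk1b had an r of 0.84 with each other and those of Wt1 0.85. Pxr-/- PCN replicate 1 was the lowest array of its group for 6 of 6 members, and WT CONT replicate 4 the lowest of its group for 5 of 6.

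Msln shifted against the mean of the other members in the PCN groups. Its log2 signal minus the mean of the other 5 members on the same array was 2.34 to 2.80 in WT CONT and 3.27 to 3.71 in WT PCN. In Pxr-/- mice it was 2.58 to 2.88 in CONT and 2.91 to 3.65 with PCN. The CONT and PCN arrays did not overlap in either genotype on this measure, in Pxr-/- mice by a narrow margin (2.88 against 2.91). Scanner values put through quantile normalization and processed signals, from the same arrays, did not overlap either. The share of all probes that separate on such a measure was not computed. The mean of the other 5 members overlapped between all groups, with group means of 8.09, 8.12, 7.97 and 8.20 in WT CONT, WT PCN, Pxr-/- CONT and Pxr-/- PCN. That mean joins genes whose fitted PCN changes had opposite signs, such as Wt1 (0.30 in WT and 0.63 in Pxr-/- mice) and Lrrn4 (-0.25 and -0.16). Such a shift was not particular to Msln. The log2 signal of Wt1 minus that of Lrrn4 was also higher on every PCN array than on every CONT array, in both genotypes. The size of such a gap depends on the probes, and only its shift between arrays can be read. Both measures were chosen after the values were seen and carry no test. The first contains the Msln change itself, so it adds no separate support for that change.

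**Figure D4:**
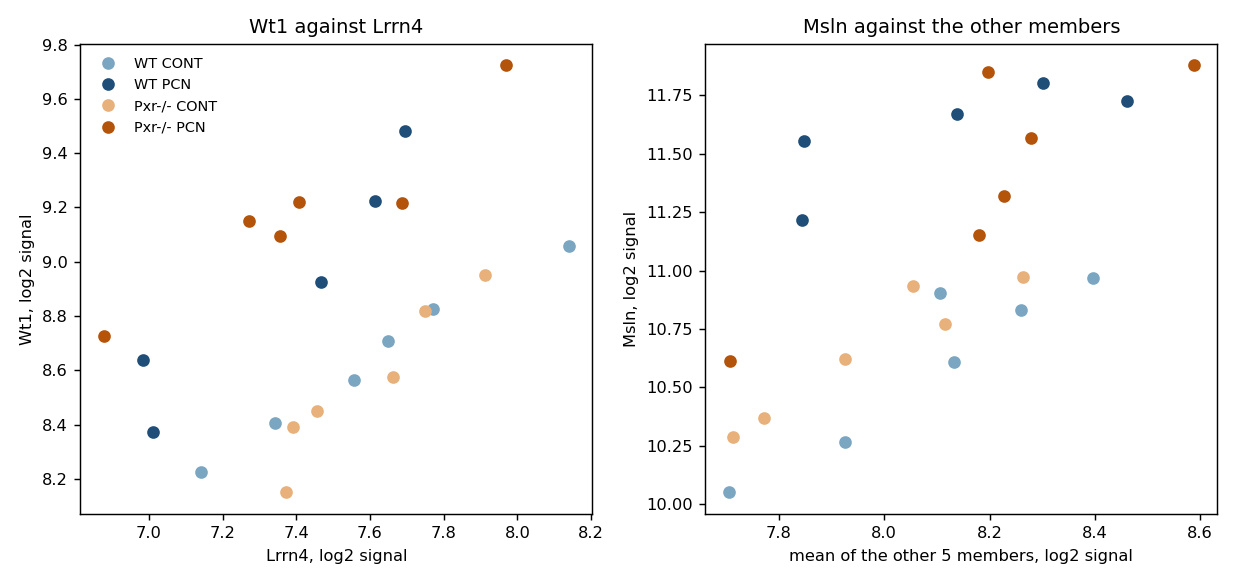
Each point is 1 array, coloured by group, on log2 scales: Wt1 against Lrrn4 (left) and Msln against the mean of the other 5 members (right). Lrrn4 and Wt1 rise together within each group. At a given level on the horizontal axis the PCN arrays lie above the CONT arrays in both panels, for Wt1 and for Msln.

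The genes most like the members in their variation from mouse to mouse were sought among 17089 genes, by the r of each gene with the mean of the 6 members after group means were taken off. The 10 closest were Igfbp6 (0.93), Atp6v0a4 (0.92), Nkain4 (0.88), Crb2 (0.88), Ptgis (0.87), Kcnab1 (0.86), Ildr2 (0.84), Gjb5 (0.84), Rspo1 (0.83) and Slc7a14 (0.82). These are descriptions over 23 arrays that share labelling and normalization, and the median r of all genes was 0.01. Of these, 3 of 10 were called with PCN in Pxr-/- mice, namely Igfbp6, a binding protein of insulin-like growth factors (0.88), Ptgis, the prostacyclin synthase (0.73), and Ildr2 (0.72). None of the 10 was called in WT, where Igfbp6 changed by 0.82 (adjusted p = 0.0747 by limma) and Ptgis by 0.61 (adjusted p = 0.0749). Beside these counts, 0.786% of all probes were called higher in Pxr-/- mice and 0.638% in WT.

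Of 16 further mesothelial genes, 14 were in the table, and Muc16 and Tbx18 were not. Their likeness to the members varied widely. Nkain4, Rspo1 and Bnc1, a transcription factor of mesothelial and squamous cells, were the closest and ranked 3, 9 and 18 among the 17089 genes. Krt7, Krt19 and Tcf21 were the farthest, at ranks 8340, 9366 and 12394 (r = 0.02, -0.03 and -0.16). PCN raised Pdpn, which encodes the mucin-like protein podoplanin of mesothelium, lymphatics and fibroblasts, by 0.68 in WT and 0.64 in Pxr-/- mice. Pdpn spanned 10.74 to 11.18 in WT CONT and 11.05 to 11.82 in WT PCN, and 10.69 to 11.13 in Pxr-/- CONT and 11.26 to 11.79 in Pxr-/- PCN. Krt7, a keratin of simple epithelia that the gut epithelium also expresses, was called in WT alone (0.66) and Prg4, which encodes the lubricant lubricin, in Pxr-/- mice alone (0.75). The interaction was not called for either, with adjusted p = 0.0652 by limma for Krt7. The Pdpn call in Pxr-/- mice was lost with scanner medians scaled by the median and with the slide as a fixed block. That of Prg4 was lost with normexp. With wash batch 1 fitted on its own no gene of the list was called higher, and with wash batch 2 only Pdpn was, in each genotype. In Pxr-/- mice Aldh1a2 (0.42), Cd200 (0.33) and Slpi (-0.52) changed by less than 1.5-fold and so were not called, with adjusted p = 0.0157, 0.0198 and 0.0437 by limma. In all, 2 of 14 were called higher and 0 lower in each genotype, with median changes of -0.0045 in WT and 0.21 in Pxr-/- mice. Of all probes, 0.638% were called higher in WT and 0.786% in Pxr-/- mice.

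PCN also raised some genes known to be induced in irritated serosa, chemokines among them. Of 19 such genes, Cxcl2 was not in the table, and of the other 18, 8 were called higher with PCN in WT and 6 in Pxr-/- mice, beside 0.638% and 0.786% of all probes, and none was called lower, beside 0.0996% and 0.258%. Median changes of the list were 0.63 and 0.37. Among the 16 genes well above background on all arrays, a count made after the data were seen, 6 were called in WT and 4 in Pxr-/- mice, with median changes of 0.54 and 0.30. The mean level of the list was 7.54 to 8.07 in WT CONT and 8.21 to 8.51 in WT PCN, and 7.56 to 8.08 in Pxr-/- CONT and 8.21 to 8.52 in Pxr-/- PCN. These ranges did not overlap in either genotype, and nor did those of the neutrophil list given below. How often the mean of a like set of genes separates was not computed. The mean includes Il6 and Has1, which were mostly at background without PCN, and the list was chosen with earlier results of these data known. With each wash batch fitted on its own, 0 and 2 of the 18 were called in WT and 2 and 3 in Pxr-/- mice, while the median change stayed at 0.48 and 0.71 in WT and at 0.38 and 0.39 in Pxr-/- mice. These genes are not specific to mesothelium, and fibroblasts, endothelium and leukocytes of the wall use them too.

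The largest called changes in WT were those of the monocyte chemokine Ccl2 (1.49 in WT and 1.45 in Pxr-/- mice), the alarmin Il33 (1.23 and 1.18) and the chemokine Ccl7 (1.15 and 1.11). In Pxr-/- mice Has1 (1.14) came between Il33 and Ccl7. Ccl2 spanned 7.18 to 8.63 in WT CONT and 8.87 to 10.13 in WT PCN, and 7.75 to 8.78 in Pxr-/- CONT and 9.44 to 10.19 in Pxr-/- PCN. Il33 spanned 8.23 to 8.75 and 9.32 to 9.96 in WT, and 7.89 to 8.62 and 9.07 to 9.96 in Pxr-/- mice. The PCN arrays were thus above every CONT array for both genes in both genotypes, as was so for 1.43% of all probes in WT and 1.44% in Pxr-/- mice.

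The cytokine Il6, the hyaluronan synthase Has1 and the matrix protein gene Thbs1 were called in both genotypes as well. Il6 and Has1 were the 2 genes of the list not above background on all arrays. Without PCN, Il6 was above it on 1 of 6 arrays in each genotype and Has1 on 1 of 6 in WT and 2 of 6 in Pxr-/- mice, against all PCN arrays. The fitted differences, 0.79 and 1.09 for Il6 and 1.01 and 1.14 for Has1, thus set PCN mostly against arrays at background and give no exact size of the change. Has2, the other hyaluronan synthase on the list, changed by -0.28 and 0.30 and was not called. The adhesion molecules Vcam1 (0.67) and Icam1 (0.60) were called in WT and not in Pxr-/- mice. None of the 18 was called in the interaction. Il1b, Cxcl1, Cxcl13, Plau, Plaur, Plat, Ptgs2, Tgfb1 and Cd44 were not called in either genotype.

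**Figure D5:**
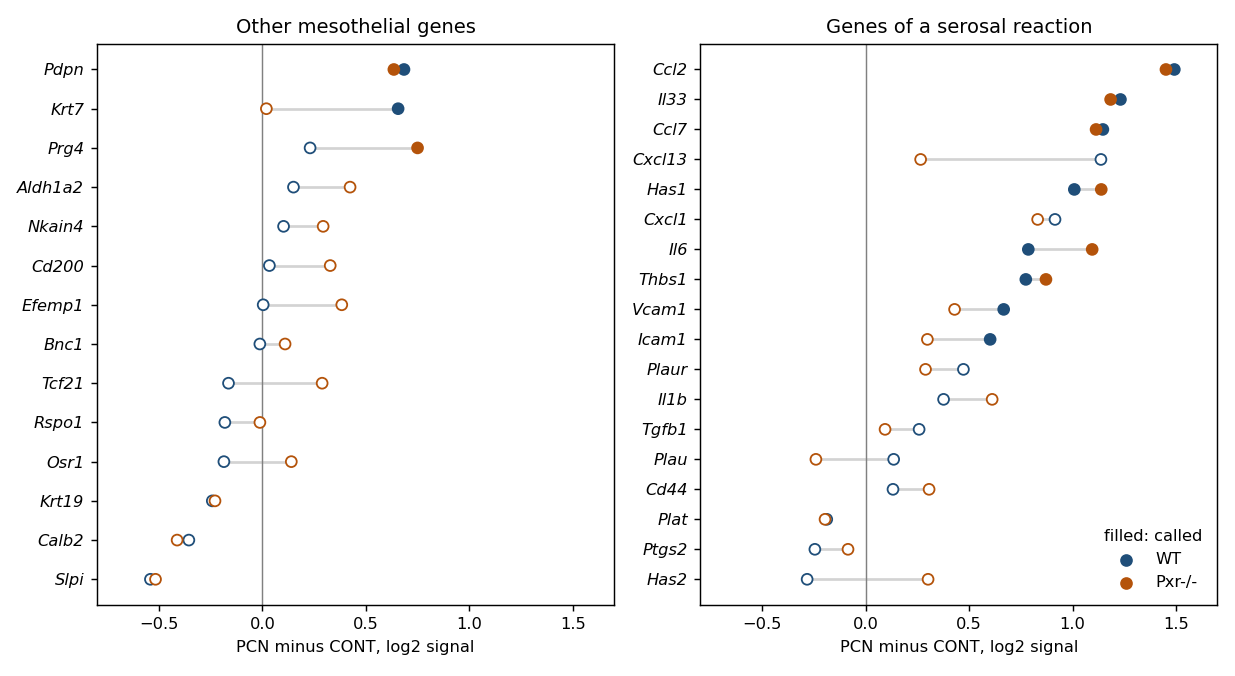
PCN minus CONT on the log2 scale (horizontal axis) for 14 further mesothelial genes (left) and 18 genes of a serosal reaction (right), in WT (blue) and Pxr-/- mice (orange); filled points were called. Ccl2, Il33, Ccl7, Has1, Il6 and Thbs1 are filled in both genotypes, and 2 of 14 mesothelial genes are filled in each genotype, Pdpn in both, Krt7 in WT and Prg4 in Pxr-/- mice.

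Genes of mesenchymal change and adhesion were called higher for 2 of 16 in WT and 5 of 16 in Pxr-/- mice. The shares of all probes called higher were 0.638% and 0.786%, and the list was chosen with earlier results of these data known. They were Vim, the intermediate filament of mesenchymal and mesothelial cells (0.69 and 0.91), and Timp1, an inhibitor of matrix proteases (1.33 and 1.13), in both genotypes, and the collagen genes Col1a1 (1.01) and Col3a1 (0.81) and fibronectin Fn1 (0.80) in Pxr-/- mice alone. The transcription factors Snai1, Snai2, Twist1 and Zeb1 were not called. The interaction was called for none of Vim, Timp1, Col1a1, Col3a1 and Fn1.

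Markers of other cells that the ileal wall and its serosa hold were read beside the members, and their part in the results was not tested. Beside the counts in this and the next paragraph, 0.638% of all probes were called higher in WT and 0.786% in Pxr-/- mice. For neutrophils, 2 of 9 genes were called higher in WT and 4 of 9 in Pxr-/- mice, with S100a8 up by 1.62 and 2.56 and S100a9 by 2.15 and 2.90, while the granulocyte marker Ly6g was not called, at -0.25 and -0.23. The mean of the list was 6.91 to 7.35 in WT CONT and 7.58 to 8.12 in WT PCN, and 7.17 to 7.52 in Pxr-/- CONT and 7.65 to 8.46 in Pxr-/- PCN. For peritoneal macrophages, 0 of 9 were called in WT and 1 of 9, Fn1, in Pxr-/- mice, and the defining genes Gata6 and Timd4 were not called. List means were 8.47 to 8.60 and 8.51 to 8.72 in WT, and 8.38 to 8.59 and 8.51 to 8.96 in Pxr-/- mice. Gata6 is also a gene of ileal epithelium.

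Of 8 fibroblast genes, Lum was called in WT (0.70), and Lum (0.82), Pi16 (0.91) and Cd34 (0.66) in Pxr-/- mice. Of 10 genes of outer smooth muscle, 0 were called in WT, and Actg2 (0.67) and Cnn1 (0.66) in Pxr-/- mice. None of 10 fat genes, 15 genes of enteric neurons and glia, 5 further urothelial genes, 8 genes of ileal epithelium and 3 pancreatic genes was called in either genotype. These lists included Fabp4, Cidec and Cfd for fat, Snap25, Uchl1 and Vip for neurons and glia, and Fabp6, Lgals4 and Vil1 for epithelium. Upk1a and Upk3a, the uroplakins related to the members, changed by -0.12 and 0.05 in WT. The median r with the members from mouse to mouse was 0.48 for genes of neurons and glia, 0.44 for the further mesothelial genes, 0.41 for fat, 0.40 for smooth muscle, -0.01 for epithelium and -0.21 for genes of a serosal reaction.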

How the data were processed

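Total RNA of snap-frozen ileum (150 ng) was labelled with Cy3 by the authors and hybridised to Agilent SurePrint G3 Mouse arrays, 1 array per mouse. Per the file headers, scanner values are intensity on a linear scale, read with Feature Extraction 10.10.1.1. The authors deposited 37161 probes on the log2 scale. According to the methods, median signals were filtered, put on that scale, corrected for the 2 wash batches and normalized by CrossNorm, and neither the filter nor the CrossNorm grouping is stated. When checked, the columns had identical distributions (largest difference between quantiles 0, median 8.02), and they correlated with the scanner median signal of the same array at a Spearman rho of 0.9995 to 0.9997 across probes. The other flags deposited with the scanner files say per the file headers whether a spot is well above background, an outlier or saturated. On an array, 60.9% to 67.3% of 56605 probes were well above background.

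Groups came from the labels. Probes took symbols through RefSeq (24325 by accession, 5938 by name, 308 by an older name, 6590 without). The deposited table was fitted with limma 3.58.1 in R 4.3.3 (lmFit, contrasts, eBayes, 2-sided), with 4 groups, 23 arrays and no covariate, since the wash batch was already corrected, and Benjamini-Hochberg adjustment was made over all probes of a contrast. The fit was tested on simulated data. The study's rule set the calls (adjusted p no higher than 0.05, fold change over 1.5). Pairs of members were related after group means were taken off, with 100000 free permutations of the arrays. The number of arrays, 5 or 6 a group, limits the precision (median SE 0.0946 or 0.0992 for the PCN contrasts). The labels allocate 6 mice to each group, and 5 arrays of WT PCN were given here. P-values measure the spread between mice, and mice of a group may share cages or litters that the labels do not name.

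Named genes were all members, the genes of each other list called in a PCN contrast (the 3 with the largest change, and the 3 brightest where none was called) and the 10 genes most like the members. Further called genes are named for completeness, and those and others outside that rule were chosen after their values were seen. Members and lists were chosen with earlier results of these data known. A gene of the serosal reaction list is not reported here, and its values are in no count, median or mean of that list. Alternatives were scanner median signal (quantile or median scaled, with or without a filter), processed signal at the 75th percentile, normexp with an offset of 50, wash batch as a term or alone, slide as a block, the replicate number as a block, array weights, trend and robust settings, the 2 groups compared alone, the mean over probes, no fold limit, and each array left out.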

Additional observations from a re-analysis of the deposited data

Results flagged for a closer look

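For each of the 8 probes in each of the 4 groups, the lowest and the highest array were set against the rest of the group, which makes 32 groups of arrays, of which chance alone marks about 1 in 20. In 3 of them, the lowest array was set apart by a gap that was large beside the range of its group, a range that can itself be small. On the dimmer Upk1b probe, WT PCN replicate 4 was at 8.13 in a group whose highest array was at 8.38. The brighter probe of the same gene was at 9.80 on that array, inside its group. Upk3b was at 6.89 in Pxr-/- CONT replicate 6 and at 7.15 in Pxr-/- PCN replicate 1. The latter array was the lowest of its group for all 6 members.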

How the results depend on the processing

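Of 1164 values of the members under other settings, 1083 kept their direction and their side of the threshold, 34 lost a call and 47 changed sign, and none gained a call. In WT the number of members called stayed at 1 (Msln) under 15 of 17 settings and without each of the 23 arrays (1 to 1), and was 0 with wash batch 1 only or 2 only, where 47 and 49 probes of the table were called against 274. In Pxr-/- mice the 2 called members became 1 with scanner medians scaled by quantiles or by the median, with the wash batch as a term, with the slide as a fixed block, with the replicate block and with the mean over probes. They became 0 with the processed signal, without a filter, with wash batch 1 only or 2 only (10 and 159 probes called against 388) and with the 2 groups alone. The cause was not tested. With single arrays left out the number was 0 to 2, and it changed for Pxr-/- PCN replicates 2 to 6, Pxr-/- CONT replicates 1, 4, 5 and 6, WT PCN replicate 5 and WT CONT replicate 2. Msln in Pxr-/- mice was at 0.59 to 0.81 (adjusted p 0.0222 to 0.533 by limma), and Wt1 at 0.44 to 0.71 (adjusted p 0.0359 to 0.488).

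All sign changes were of values that were not called. For PCN in WT, Upk1b came to -0.0177 (scanner median scaled by the median), -0.0447 (wash batch 2) and -0.0641 (slide fixed), and Upk3b to -0.0163 (median scaled), -0.0263 (wash batch 1) and -0.0394 (replicate block). With the slide fixed, the interaction came to 0.12 for Lrrn4 and 0.055 for Gpm6a. Without PCN, the genotype difference of Lrrn4 came to 0.0297 (processed signal), 0.00823 (normexp) and 0.0134 (wash batch 1), of Upk3b to 0.00541 (wash batch 1) and of Msln to -0.0728 (wash batch 2) and -0.0186 (slide fixed). With PCN, Upk3b came to -0.0283 (wash batch 2) and -0.0729 (slide fixed) and Lrrn4 to -0.14 (slide fixed).

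With single arrays left out, the PCN change in WT ran from -0.00151 to 0.0800 for Upk1b, -0.11 to 0.14 for Upk3b and -0.0319 to 0.15 for Gpm6a, and the interaction from -0.19 to 0.0252 for Lrrn4 and -0.19 to 0.0026 for Gpm6a. The genotype difference without PCN ran from -0.0568 to 0.13 for Msln, -0.10 to 0.0986 for Lrrn4, -0.16 to 0.0105 for Wt1 and -0.00465 to 0.16 for Gpm6a, and that with PCN from -0.0517 to 0.18 for Upk3b and -0.0346 to 0.18 for Lrrn4.

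Equal replicate numbers do not pair the mice. Only 6 of 33 same-numbered pairs of arrays had deviations with r above 0.1 (median -0.0320, range -0.21 to 0.43). With the replicate number as a block, Msln was still called and Wt1 in Pxr-/- mice was at 0.63 (adjusted p = 0.0733 by limma), and 259 and 356 probes were called for PCN in WT and in Pxr-/- mice. Without PCN, the difference of Upk1b between the genotypes was -0.53 (adjusted p = 0.0203 by limma) with the slide fixed and -0.49 (adjusted p = 0.0306) with array weights, below 1.5-fold in both, and 257 and 231 probes of the table were called there against 70. The count of genes of a serosal reaction called higher, tried after seeing the data, was 6 to 8 in WT and 6 or 7 in Pxr-/- mice under the other settings apart from single wash batches, and 7 to 9 and 6 to 7 without single arrays.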
